A study of Homo sapiens with 6 samples.

Results

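The genes described here code for the collagens, the laminins and the integrins, the main structural proteins of the extracellular matrix and the receptors that bind it. They were taken from the gene count table as all protein-coding genes whose symbol has the form of a collagen alpha chain (COL), a laminin chain (LAMA, LAMB or LAMC) or an integrin chain (ITGA or ITGB). The rule used names only and no measured value. It found 81 genes among the 58735 in the table, of which 44 were collagens, 12 laminins and 25 integrins. The symbol ITGA2B does not have this form and was not included. RNA-seq was done on 6 libraries of RPE-1, an hTERT-immortalised human line derived from retinal pigment epithelium. The line used carries CETN2, a centriole protein, tagged with GFP, and PLK4, a kinase that drives centriole duplication, under an rtTA promoter that responds to doxycycline. Cells of the siSON group (3 libraries) received small interfering RNA against SON, a splicing factor of nuclear speckles, and cells of the siControl group (3 libraries) received a scramble siRNA. All 6 libraries came from cells given doxycycline (1 µg/mL) to switch PLK4 on, so every difference below is between knockdown and control in cells with induced PLK4. The labels give replicate numbers but do not say whether the libraries of a group came from separate cultures, so the p-values measure the spread between these libraries, which may be technical.

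Collagens are secreted as trimers of alpha chains wound into a triple helix. The fibrillar types build the tension-bearing fibres, the network types such as type IV build the sheet of the basement membrane, and others decorate fibrils, anchor membranes or span the cell surface. Laminins are cross-shaped trimers of an alpha, a beta and a gamma chain that polymerise on the cell surface and start basement membrane assembly. Integrins are dimers of an alpha and a beta chain at the plasma membrane. The alpha chain largely sets which ligand is bound, and the beta chain links it to the actin cytoskeleton. In the eye, the retinal pigment epithelium rests on its own basement membrane within Bruch's membrane, and holds to it through integrins.

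The total count per library was between 54572365 and 69764836. Levels are given below as CPM, the count of a gene as a rate of its library's total after TMM scaling, a scaling that sets the bulk of genes to no net change, and levels of different genes are compared only as CPM per kilobase of exon. At these depths 3 counts correspond to 0.0402 to 0.059 CPM. SON itself stood at 295, 313 and 284 CPM in the siControl libraries and at 68.0, 70.0 and 65.0 CPM in the siSON libraries, which left 22.8% of the control level (log2 fold change -2.14, adjusted p = 6.78e-10, edgeR quasi-likelihood test). Among 14 markers of retinal pigment epithelium, 8 were below 1 CPM in every library, among them the defining RPE65, RLBP1, TYR and LRAT. The summed level of these 14 markers was 137 to 145 CPM in siControl and 219 to 249 CPM in siSON. The 8 that were tested split into 4 higher, led by PAX6 (39.8 to 127 CPM), and 4 lower, led by PMEL (2.06 to 0.201 CPM), with a median log2 fold change of -0.21. Of 7 epithelial markers 5 were below 1 CPM, CDH1 and EPCAM included, and their sum, set by KRT8 and KRT18, was 764 to 864 CPM in siControl and 1331 to 1393 CPM in siSON. The sum of 10 mesenchymal markers was 10328 to 11236 CPM against 8836 to 9123 CPM and was mostly VIM, which was not called. Of the 8 tested, 5 were lower, with ACTA2 at 1098 against 151 CPM (log2 fold change -2.86), and 1 was higher, CDH2 (0.66). Leukocyte and endothelial or platelet markers summed to less than 9 CPM in each library. The part that such shifts have in the values below was not tested.

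Across all genes, 71.7% of the 16591 tested were called, meaning an adjusted p under 0.05, with 35.2% higher and 36.5% lower in siSON. Of the 81 collagen, laminin and integrin genes, 62 passed the filter on low counts and 43 of these (69.4%) were called, 18 higher and 25 lower. The share called was thus close to that of all genes. Changes of at least 2-fold were called in 6 members upward and 15 downward, 9.68% and 24.2% of those tested, beside 8.72% and 20.5% of all genes. For protein-coding genes these shares were 8.62% and 18.7%. The siSON and siControl values did not overlap in 46 of the 62, or 74.2%, against 75.1% of all genes and 79.9% of protein-coding genes. By family, 22 of 31 collagens (9 higher, 13 lower), 6 of 11 laminins (4 higher, 2 lower) and 15 of 20 integrins (5 higher, 10 lower) were called. The median log2 fold change was -0.21 for collagens, 0.33 for laminins, -0.36 for integrins, -0.03 for all genes tested and 0.03 for protein-coding genes. These are bulk RNA measurements, in which fewer cells that make a transcript and less of the transcript per cell cannot be told apart. The split between directions depended on scaling: among called members 41.9% were higher with TMM, 32.6% (14 of 43) with library size alone and 46.3% (19 of 41) with cyclic loess, and these settings moved the median of all genes by -0.20 and 0.14 on the log2 scale.

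**Figure D1:**
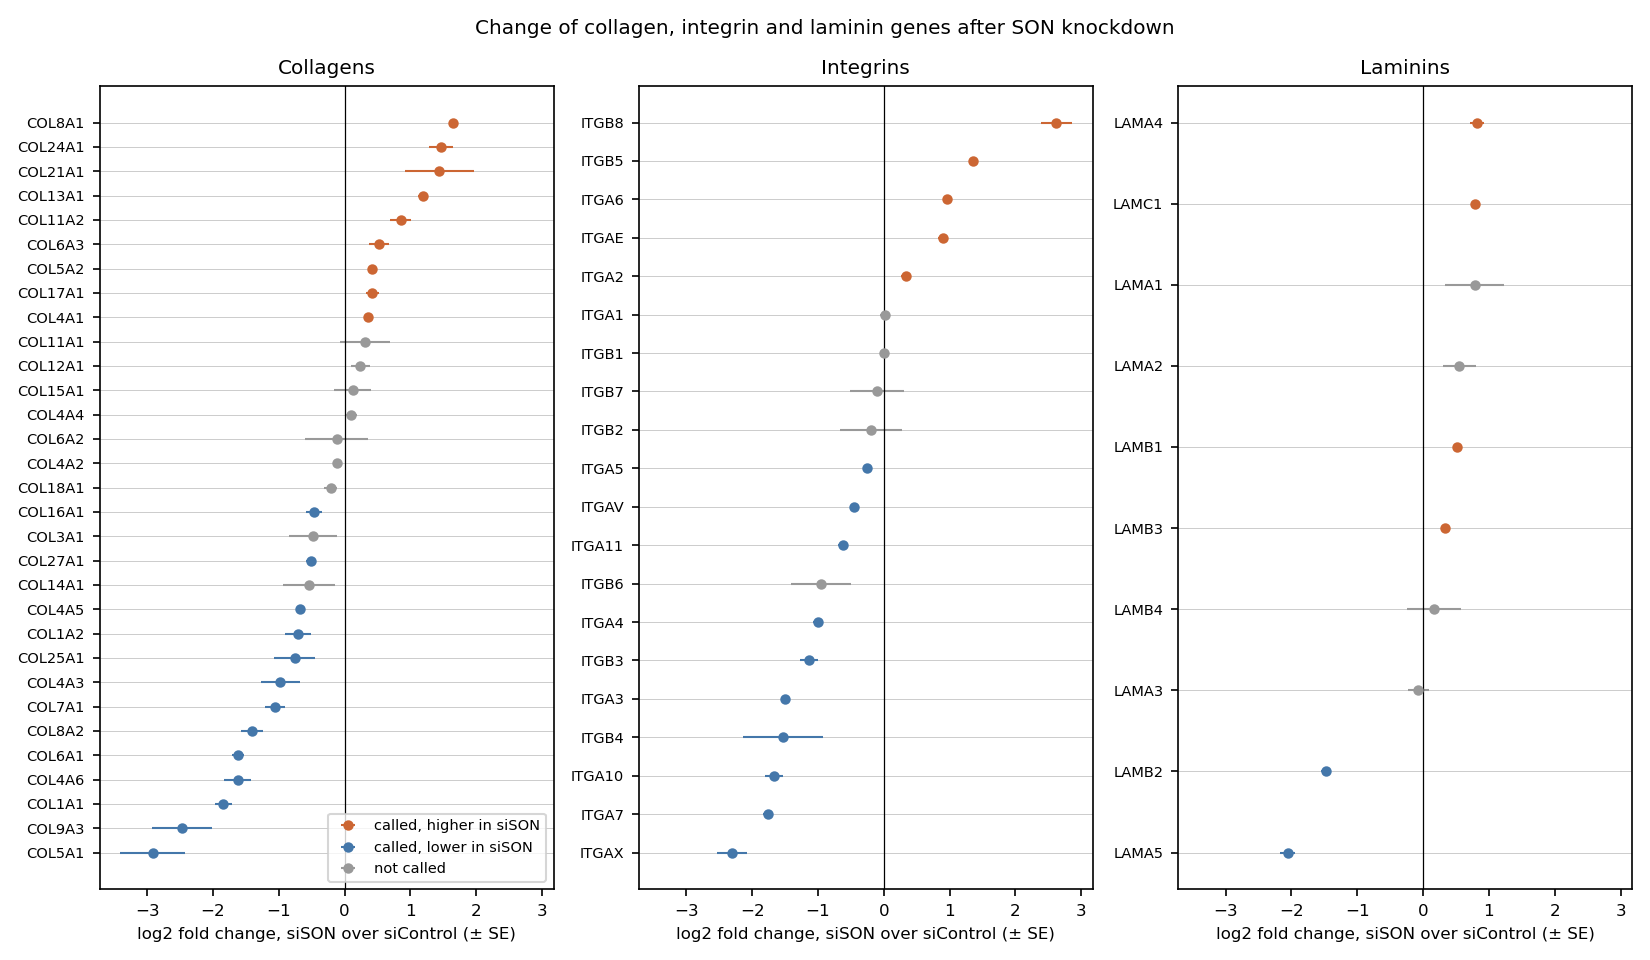
Each point is the log2 fold change of siSON over siControl for one tested gene (1 laminin is not shown) with its standard error (n = 3 libraries per group), in 1 panel per family and sorted by size; colour gives the call at an adjusted p under 0.05. Changes run from -2.91 (COL5A1) to 2.62 (ITGB8), and each family holds called genes in both directions.

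In the control cells the highest levels per kilobase belonged to 2 integrin chains. ITGB1, the beta chain shared by most matrix receptors, stood at 411 CPM per kb and ITGA5, the alpha chain of the classical fibronectin receptor, at 359 CPM per kb. They were followed by ITGA3 at 112, LAMC1 at 79.0, COL4A1 at 69.0 and COL4A2 at 52.8 CPM per kb. The 3 libraries of each of these genes did not overlap with those of the next in this order. After knockdown ITGB1 (413 CPM per kb) and ITGA5 (299 CPM per kb) still led, LAMC1 was the third at 137 CPM per kb and COL8A1 the fourth at 91.3 CPM per kb, a level that overlapped that of COL4A1 (88.3 CPM per kb). ITGA3 dropped to 39.5 CPM per kb. In all, 37 of the 81 genes reached 1 CPM per kb in at least one group mean.

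**Figure D2:**
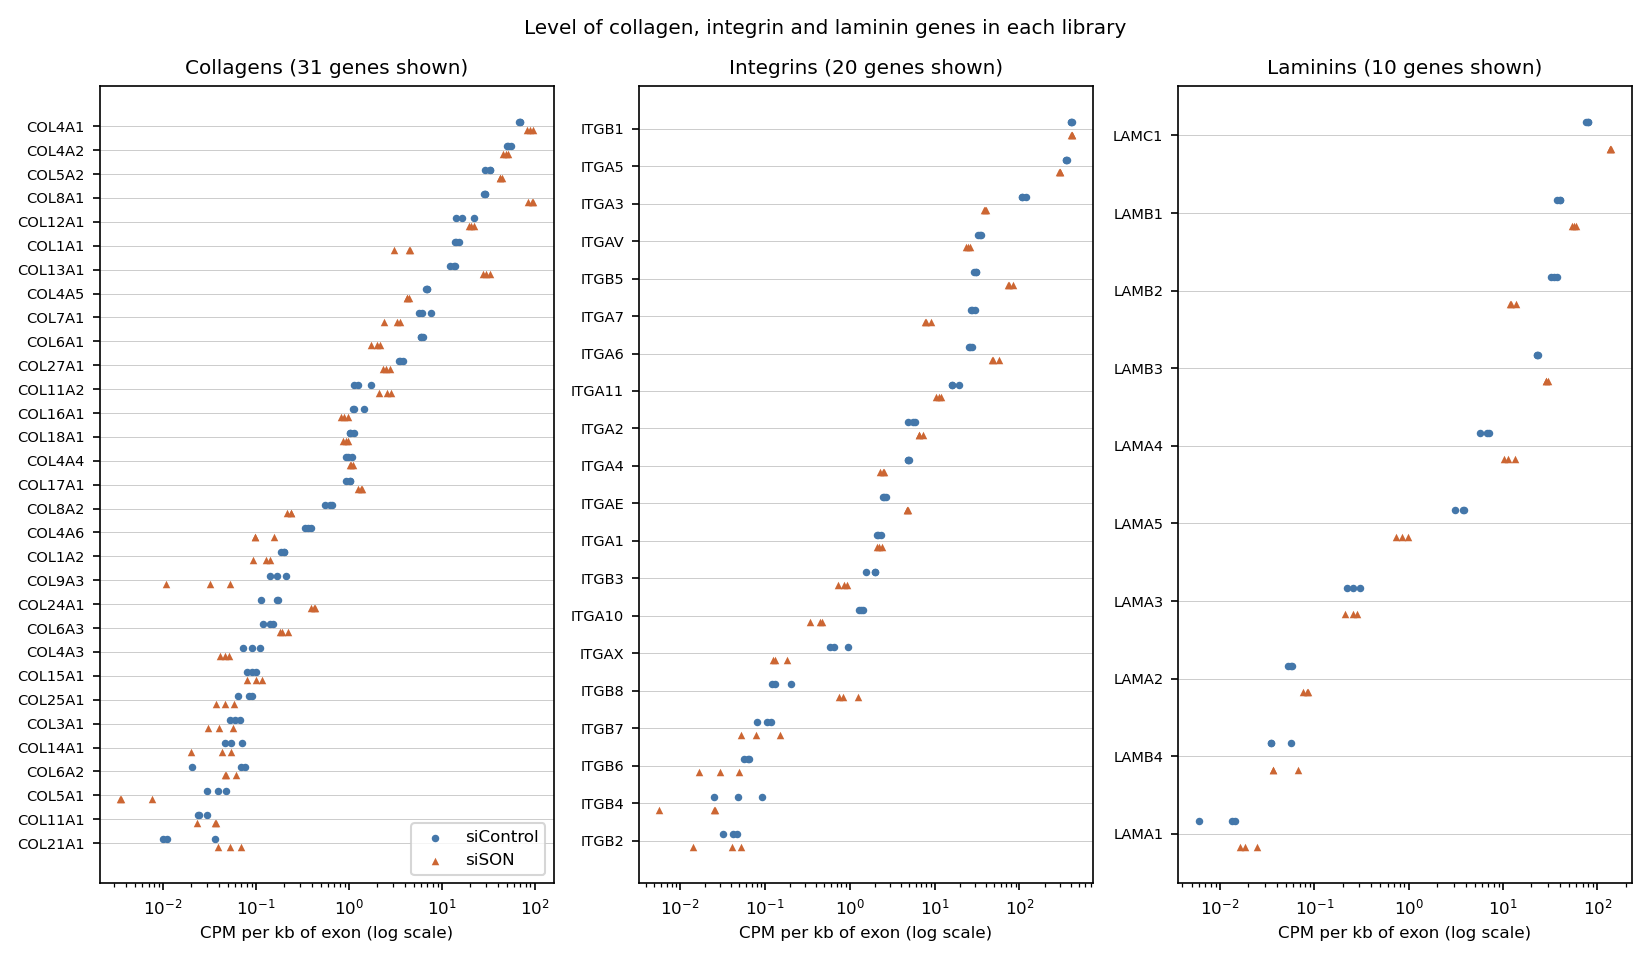
Level of the tested genes, less 1 laminin that is not shown, in CPM per kilobase of exon (log scale) in the 3 siControl libraries (circles) and the 3 siSON libraries (triangles), in 1 panel per family and ordered by level. ITGB1, ITGA5 and LAMC1 head their panels, the triangles of COL8A1 and ITGB8 lie to the right of the circles, and those of COL1A1, ITGA3, ITGA7 and LAMA5 to the left.

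The most abundant collagens per kb in the control cells were COL4A1 and COL4A2, chains of type IV, the sheet-forming collagen of basement membranes. COL4A1 and COL4A2, whose products join in the common type IV trimer, lie head to head on chromosome 13 and are read outward from one short stretch. It is shown because their transcripts did not move alike. The 126 bases between the RefSeq start sites (GRCh38.p14, chr13:110307158-110307283, plus strand, COL4A2 to the right) have a GC content of 80.2%, against a median of 60.3% for windows of the same length upstream of 35116 RefSeq promoters. Capitals mark a CCAAT box (letters CCAAT) and a GC box (letters GGGCGG), each found once when both strands were searched.
COL4A1-COL4A2: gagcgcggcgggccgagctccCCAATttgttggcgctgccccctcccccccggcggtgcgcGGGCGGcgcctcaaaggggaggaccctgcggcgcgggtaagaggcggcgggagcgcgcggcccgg
CCAAT occurs in 21.1% and GGGCGG in 34.6% of those windows, and the TATA letters TATAAA, which occur in 5.87% of them, are not in this stretch. A match of letters is a description of the stretch and not a binding site.

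COL4A1 read 1016, 999 and 1034 CPM in siControl and 1205, 1396 and 1304 CPM in siSON. All siSON libraries lay above all siControl libraries (log2 fold change 0.36, SE 0.06, adjusted p = 1.59e-04), although cyclic loess, which scales by expression level, gave -0.09. COL4A2 read 1079, 982 and 998 CPM in siControl and 879, 996 and 935 CPM in siSON. Here the groups overlapped and the difference was not called (log2 fold change -0.12, adjusted p = 0.0806), but it was called lower with library size alone (-0.32), with cyclic loess (-0.56), with a mean count of at least 50 (-0.18) and without siSON replicate 2 (-0.16). The COL4A1 to COL4A2 ratio per kb, which does not depend on how whole libraries are scaled, was 1.23, 1.33 and 1.36 in siControl and 1.79, 1.83 and 1.83 in siSON. The ratio was therefore higher in every siSON library than in any siControl library. In GENCODE 29 the 2 genes overlap by 1421 bases on opposite strands, and since the strand setting of the counting is not given in the sources used here, reads from this overlap cannot be assigned with certainty.

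The other type IV chains are also arranged in head-to-head pairs, and are best known from specialised basement membranes such as that of the kidney glomerulus. COL4A5 fell from 81.2, 82.2 and 80.6 CPM to 49.9, 52.9 and 50.2 CPM (log2 fold change -0.67, SE 0.05, adjusted p = 7.21e-07). Its partner COL4A6, with a start site 379 bases away on the X chromosome, fell further, from 3.61, 3.33 and 3.10 CPM to 0.913, 0.911 and 1.44 CPM (-1.63, SE 0.20, adjusted p = 2.50e-05). The COL4A5 to COL4A6 ratio per kb was 17.6 to 20.3 in siControl and 27.4 to 45.4 in siSON. In the pair on chromosome 2, whose start sites lie 418 bases apart, COL4A3 fell from a mean of 0.837 to 0.422 CPM (-0.98, adjusted p = 0.0108), a call lost with cyclic loess (-0.42) and without siControl replicate 2 (-0.83). COL4A4 read 9.37 to 10.9 CPM in siControl and 10.3 to 11.1 CPM in siSON and was not called, although cyclic loess called it higher (0.30) and library size alone gave -0.10. The COL4A3 to COL4A4 ratio per kb was 0.0773 to 0.115 in siControl and 0.0386 to 0.0498 in siSON. In all 3 head-to-head type IV pairs the ratio of the chains did not overlap between the groups. This is not particular to head-to-head pairs. Every other chain ratio given below was also without overlap, and so were the levels of 75.1% of all genes tested.

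Type VIII collagen forms hexagonal lattices, for which the corneal endothelium's Descemet membrane is the standard example. COL8A1 had the largest rise among the collagens, from 266, 277 and 276 CPM to 898, 876 and 802 CPM (log2 fold change 1.65, SE 0.05, adjusted p = 1.69e-09). COL8A2, the other chain of the type, fell from 2.90, 2.61 and 3.06 CPM to 1.02, 1.10 and 1.10 CPM (-1.41, SE 0.17, adjusted p = 1.72e-05). The groups of both genes were far apart and moved in opposite directions. COL8A1 exceeded COL8A2 per kb 44.7 to 52.7 times in siControl and 361 to 438 times in siSON. Together the network collagens numbered 9, of which 8 were tested, with 2 higher and 4 lower. Of all genes tested, 35.2% were higher and 36.5% lower.

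Among the 11 fibrillar collagens, 9 were tested, with 3 higher and 4 lower, beside 35.2% and 36.5% of all genes tested. COL1A1, the major chain of type I collagen, read 136, 139 and 149 CPM in siControl and 30.3, 43.8 and 44.1 CPM in siSON (log2 fold change -1.85, SE 0.13, adjusted p = 8.67e-07). The lowest value was that of siSON replicate 1, and without it the change was still -1.67. COL1A2, the partner chain of type I, was far less abundant in both groups, at 2.26, 2.08 and 2.26 CPM against 1.03, 1.57 and 1.44 CPM. It fell by 0.71 on the log2 scale (SE 0.20, adjusted p = 0.00680), a call lost with cyclic loess (-0.34). The COL1A1 to COL1A2 ratio per kb was 68.3 to 76.3 in siControl and 31.7 to 34.9 in siSON.

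COL5A2, a chain of the type V collagen that sets fibril diameter, was the most abundant fibrillar transcript. It read 220, 246 and 248 CPM in siControl and 313, 331 and 313 CPM in siSON (log2 fold change 0.42, SE 0.06, adjusted p = 5.16e-05), a rise that cyclic loess reduced to 0.08 and no longer called. COL5A1, with which it forms the common type V trimer, was near the limit of detection, at 0.530, 0.440 and 0.335 CPM in siControl and 0.0861, 0.0388 and 0.0394 CPM in siSON. Its fall was the largest among the 62 tested members (-2.91, SE 0.50, adjusted p = 2.72e-04), at siSON levels of 2 to 5 counts per library. COL24A1, a minor fibrillar collagen, rose from 1.09, 1.64 and 1.62 CPM to 4.13, 4.07 and 3.76 CPM (1.46, SE 0.18, adjusted p = 2.29e-05). COL11A2, a chain known from cartilage, rose from a mean of 9.35 to 16.8 CPM (0.85, adjusted p = 6.98e-04). COL27A1, another cartilage collagen, fell from 50.5 to 35.6 CPM (-0.51, adjusted p = 1.07e-04). COL3A1 and COL11A1 were not called, with siSON means of 0.290 and 0.292 CPM, although cyclic loess called COL11A1 higher (0.85).

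The fibril-associated collagens decorate the surface of fibrils. The most abundant per kb was COL12A1, with 278, 206 and 179 CPM in siControl and 280, 257 and 246 CPM in siSON. Its groups overlapped because of the high siControl replicate 1, and it was not called (log2 fold change 0.24, adjusted p = 0.149); without that library it was called higher at 0.42, while cyclic loess gave -0.07. COL9A3 fell from 0.688, 0.818 and 1.03 CPM to 0.0517, 0.155 and 0.256 CPM (-2.47, SE 0.45, adjusted p = 4.65e-04). It overlaps TCFL5 on the opposite strand. COL16A1 fell from a mean of 11.4 to 8.30 CPM (-0.46, adjusted p = 0.00503), a call lost with cyclic loess (-0.24). COL21A1 read 0.0717, 0.0786 and 0.254 CPM in siControl and 0.276, 0.485 and 0.374 CPM in siSON. Its rise (1.44, SE 0.53, adjusted p = 0.0290) was called on few counts and lost with library size alone (1.25) and without any of 4 of the 6 libraries: siControl replicate 1 (1.11) or 2 (1.16), or siSON replicate 2 (1.24) or 3 (1.46).

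Type VI collagen builds beaded filaments around cells and type VII builds the anchoring fibrils below epithelia. COL6A1 fell from 33.5, 31.6 and 31.7 CPM to 9.27, 10.7 and 11.5 CPM (log2 fold change -1.62, SE 0.09, adjusted p = 4.27e-08). Its neighbour COL6A2, a partner chain, read 0.110 to 0.416 CPM in siControl and 0.252 to 0.327 CPM in siSON and was not called. COL6A3, the large chain of the trimer, rose from a mean of 2.71 to 3.89 CPM (0.52, adjusted p = 0.00930), a call lost with library size alone (0.33). The COL6A1 to COL6A3 ratio per kb was 38.3 to 49.5 in siControl and 9.05 to 11.3 in siSON. COL7A1 fell from 84.2, 67.3 and 63.6 CPM to 36.9, 39.3 and 26.7 CPM (-1.06, SE 0.15, adjusted p = 1.74e-04).

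Of the collagens that span the plasma membrane, COL13A1, which sits at cell adhesion sites, rose from 81.6, 80.1 and 72.1 CPM to 194, 178 and 162 CPM (log2 fold change 1.19, SE 0.07, adjusted p = 9.65e-08). COL17A1, the hemidesmosomal collagen, rose from a mean of 7.01 to 9.38 CPM (0.42, adjusted p = 0.00261), a call lost with library size alone (0.22). COL25A1 was called lower at 0.703 against 0.415 CPM (-0.76, adjusted p = 0.0468). The call did not hold under 9 of 13 alternative settings, among them leaving out siControl replicate 1 (-0.74) or 2 (-0.67) or siSON replicate 1 (-0.60) or 2 (-0.74). The multiplexins COL15A1 and COL18A1, basement membrane proteoglycans that also hold anti-angiogenic fragments, were not called. COL18A1 read 8.78 to 9.70 CPM in siControl and 7.43 to 8.26 CPM in siSON, without overlap (-0.21, adjusted p = 0.0730), and was called lower with library size alone (-0.41) and with a mean count of at least 50 (-0.27).

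Summed over all 44 collagens, the level with TMM scaling was 256 to 265 CPM per kb in siControl and 335 to 360 CPM per kb in siSON. The makeup of this sum differed between the groups. COL8A1 made up 11.2% ± 0.475 (SD, n = 3) of it in siControl and 26.4% ± 1.26 in siSON. COL4A1 held 26.6% ± 0.742 and 25.5% ± 1.46, COL4A2 20.4% ± 0.611 and 14.0% ± 0.650, and COL5A2 12.3% ± 1.07 and 12.4% ± 0.151. COL1A1 went from 5.57% ± 0.365 to 1.16% ± 0.231.

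Laminins were mainly represented by LAMC1, LAMB1, LAMB2 and LAMB3. LAMC1, the gamma chain of most laminins, rose from 676, 674 and 643 CPM to 1181, 1134 and 1137 CPM (log2 fold change 0.79, SE 0.05, adjusted p = 5.13e-08). No siSON library overlapped a siControl library. Over the alternative settings the log2 fold change of LAMC1 ran from 0.363 to 0.816, with the call kept. The LAMC1 to LAMB1 ratio per kb was 1.98 to 2.05 in siControl and 2.40 to 2.53 in siSON.

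The beta chains moved in opposite directions. LAMB1, common in early and vascular basement membranes, rose from 330, 323 and 304 CPM to 477, 458 and 435 CPM (log2 fold change 0.52, SE 0.05, adjusted p = 5.23e-06). Its log2 fold change ran from 0.145 to 0.563 over the alternative settings, with the call kept. LAMB2, the beta chain of synaptic and glomerular basement membranes, fell from 256, 241 and 221 CPM to 83.1, 93.6 and 80.8 CPM (-1.48, SE 0.07, adjusted p = 1.71e-08). Per kb, LAMB1 exceeded LAMB2 1.09 to 1.16 times in siControl and 4.12 to 4.84 times in siSON. LAMB3, the beta chain of the hemidesmosomal laminin, rose from 110, 107 and 108 CPM to 135, 134 and 140 CPM (0.33, SE 0.05, adjusted p = 1.13e-04), a rise that cyclic loess reduced to 0.06 and did not call. With TMM scaling the sum of the beta chains per kb was 92.6 to 101 in siControl and 95.1 to 99.5 in siSON. The groups thus overlapped in total, while LAMB2 went from 35.8% to 12.8% of the sum and LAMB1 from 40.3% to 57.4%. DLD lies on the strand opposite LAMB1 and overlaps it.

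Among the alpha chains LAMA4 and LAMA5 also moved in opposite directions. With TMM scaling the alpha sum per kb did not overlap between the groups, though narrowly, unlike the beta sum. It was 9.11 to 11.34 in siControl and 11.43 to 14.34 in siSON. The TMM factors that scale the library totals were 1.061 to 1.0797 in siControl and 0.9256 to 0.9446 in siSON. The alpha and beta sums therefore depend on the scaling, and sums with other scalings were not computed. LAMA4, the alpha chain of mesenchymal and endothelial laminins, rose from 82.3, 79.0 and 65.9 CPM to 154, 131 and 118 CPM (log2 fold change 0.83, SE 0.11, adjusted p = 4.59e-05). LAMA5, the broadly expressed alpha chain of adult epithelial basement membranes, fell from 55.0, 53.2 and 44.2 CPM to 10.4, 14.0 and 12.2 CPM (-2.06, SE 0.12, adjusted p = 5.48e-08). ADRM1 overlaps it on the opposite strand. LAMA4 exceeded LAMA5 per kb 1.83 to 1.85 times in siControl and 11.5 to 18.2 times in siSON, with siSON replicate 1 the highest. LAMA4 thus made up 62.7% of the alpha chain sum in siControl and 90.4% in siSON, and LAMA5 34.1% and 6.76%. LAMA3, the alpha chain that pairs with LAMB3, read 4.46, 3.27 and 3.80 CPM against 3.10, 3.80 and 4.11 CPM and was not called. LAMA1 and LAMA2 had siSON means of 0.314 and 0.852 CPM and were not called either, although their siSON values lay above all their siControl values. Cyclic loess called both higher, LAMA1 at 1.38 and LAMA2 at 1.001.

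**Figure D3:**
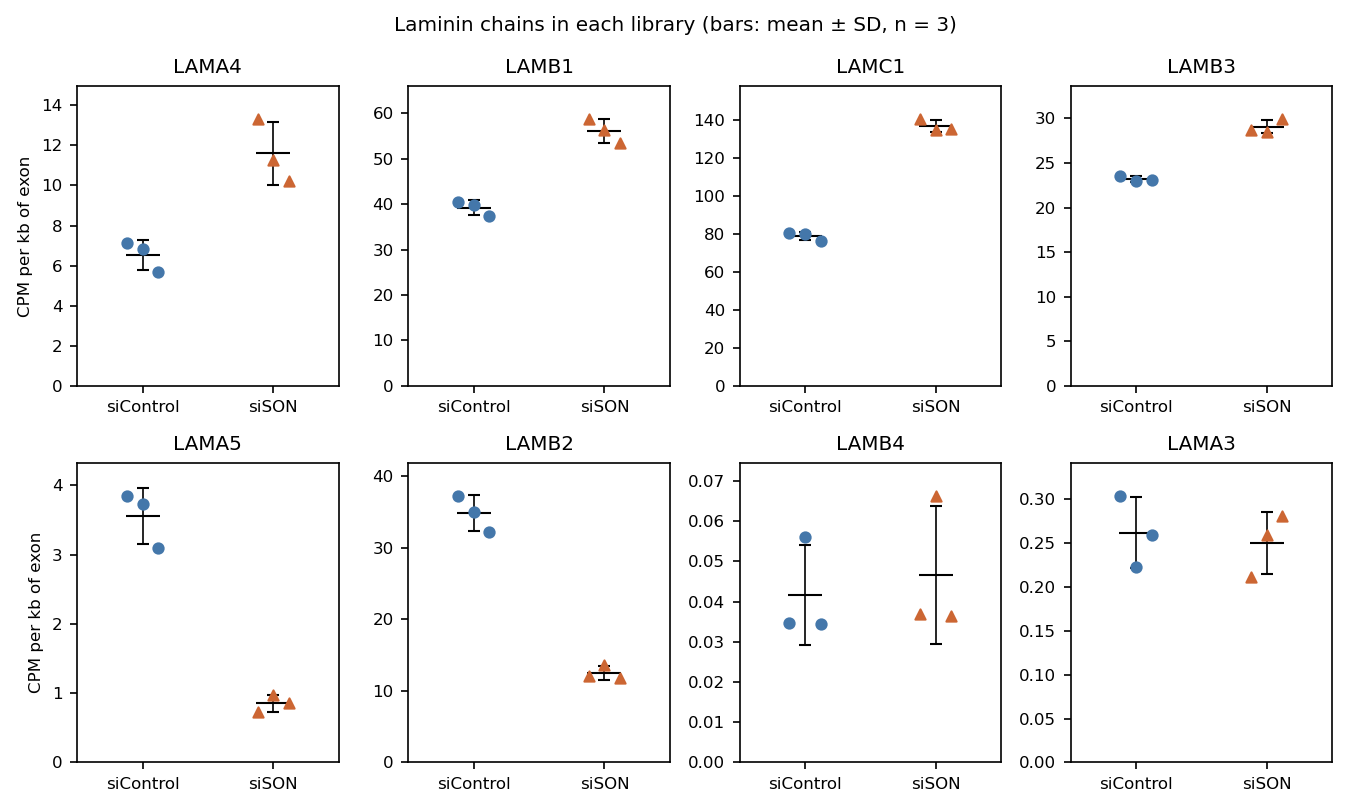
Level of 8 laminin chains in CPM per kilobase of exon in each of the 6 libraries, with mean and SD (n = 3); each panel has its own axis from 0. LAMA4, LAMB1, LAMC1 and LAMB3 are higher in every siSON library, LAMA5 and LAMB2 are lower, and the groups of LAMB4 and LAMA3 overlap.

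All 3 integrin alpha chains that bind laminin were called, beside 71.7% of all genes tested and 77.4% of protein-coding genes. ITGA3, the alpha chain that prefers LAMA3- and LAMA5-containing laminins, fell from 1177, 1051 and 1065 CPM to 388, 399 and 376 CPM (log2 fold change -1.50, SE 0.06, adjusted p = 3.24e-09). ITGA7, best known from muscle, fell from 189, 178 and 170 CPM to 49.4, 57.8 and 50.8 CPM (-1.76, SE 0.07, adjusted p = 5.16e-09). It overlaps METTL7B and BLOC1S1 on the opposite strand. ITGA6, the chain that joins either ITGB1 or the hemidesmosomal ITGB4, rose from 178, 172 and 166 CPM to 378, 318 and 312 CPM (0.96, SE 0.07, adjusted p = 3.93e-07). The ITGA6 to ITGA3 ratio per kb was 0.227 to 0.246 in siControl and 1.20 to 1.46 in siSON, so ITGA3 was the higher of the pair in every control library and ITGA6 in every knockdown library. Against ITGA7, ITGA6 went from 0.919 to 0.953 times in siControl to 5.36 to 7.45 times in siSON. ITGB4 was at 0.172 to 0.629 CPM in siControl and 0.0388 to 0.177 CPM in siSON. It was called lower (-1.53, adjusted p = 0.0417), but its groups overlapped and the call was lost with cyclic loess (-0.70), limma-voom (-1.52) and without siControl replicate 2 (-1.64) or 3 (-0.94) or siSON replicate 2 (-1.10) or 3 (-1.78).

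Among the 4 alpha chains that bind collagen, 1 rose and 2 fell, beside 35.2% and 36.5% of all genes tested. ITGA11, a fibrillar collagen receptor of mesenchymal cells and the most abundant of the 4 per kb, fell from 210, 176 and 176 CPM to 128, 123 and 113 CPM (log2 fold change -0.63, SE 0.08, adjusted p = 2.08e-05). ITGA10, a cartilage collagen receptor, fell from 9.03, 8.56 and 8.06 CPM to 2.86, 2.97 and 2.18 CPM (-1.68, SE 0.14, adjusted p = 7.64e-07). ITGA2 rose from 46.2, 43.7 and 38.6 CPM to 57.8, 52.6 and 52.4 CPM (0.34, SE 0.08, adjusted p = 0.00208), a call lost with library size alone (0.14). ITGA1, its neighbour on chromosome 5, was at 39.4 to 43.9 CPM in siControl and 39.1 to 45.2 CPM in siSON and was not called. PELO lies within ITGA1 on the same strand, so their reads are not cleanly separable.

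Of the alpha chains that recognise the RGD motif of fibronectin and vitronectin, 2 were tested, ITGA5 and ITGAV. Both were called lower, as were 36.5% of all genes tested. ITGA8 had 0 counts in every library, and ITGA2B was not included. ITGA5 fell from 2705, 2697 and 2753 CPM to 2270, 2238 and 2297 CPM (log2 fold change -0.26, SE 0.04, adjusted p = 1.76e-04). Its log2 fold change ran from -0.746 to -0.239 over the alternative settings, with the call kept. ITGAV, the alpha chain shared by the vitronectin receptors, fell from 286, 284 and 267 CPM to 191, 215 and 204 CPM (-0.46, SE 0.06, adjusted p = 2.38e-05). ITGA4, outside this group and a receptor for fibronectin and VCAM1, fell from a mean of 38.3 to 19.2 CPM (-0.999, adjusted p = 2.49e-07).

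The beta chains that pair with ITGAV differed in direction. ITGB5 rose from 199, 188 and 201 CPM to 538, 476 and 491 CPM (log2 fold change 1.36, SE 0.06, adjusted p = 7.38e-09). In retinal pigment epithelium the ITGAV and ITGB5 receptor is known for its part in the uptake of photoreceptor outer segments. ITGB8, a chain known for activating latent TGF-beta, had the largest rise among the 62 tested members, from 3.11, 1.84 and 2.01 CPM to 18.8, 12.7 and 11.4 CPM (2.62, SE 0.24, adjusted p = 4.62e-06). Replicate 1 was the highest in both groups. ITGB3 fell from 8.63, 6.91 and 8.78 CPM to 3.22, 3.78 and 4.07 CPM (-1.14, SE 0.14, adjusted p = 1.98e-05). ITGB6 read 0.267 to 0.308 CPM in siControl and 0.0787 to 0.233 CPM in siSON and was not called (-0.96, adjusted p = 0.0809), although it was with library size alone (-1.15) and without siSON replicate 2 (-1.39). Per kb, ITGB5 was 15.6 to 18.5 times ITGB3 in siControl and 82.2 to 114 times in siSON. ITGB8 was 0.0663 to 0.104 times ITGB3 in siControl and 0.814 to 1.69 times in siSON. ITGB5 stood at 0.841 to 0.957 times ITGAV per kb in siControl and at 2.82 to 3.60 times in siSON.

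ITGB1, the most abundant member, read 2449, 2445 and 2512 CPM in siControl and 2498, 2494 and 2448 CPM in siSON. The groups overlapped and ITGB1 was not called (log2 fold change 0.0067, SE 0.04, adjusted p = 0.894), but it was called lower with library size alone (-0.19) and with cyclic loess (-0.48). The ratio to ITGB1 per kb was 0.870 to 0.876 for ITGA5 in siControl and 0.712 to 0.744 in siSON, and 0.0779 to 0.0855 for ITGAV in siControl and 0.0559 to 0.0631 in siSON. With TMM scaling, the level summed over all 17 alpha chains was 586 to 606 CPM per kb in siControl and 448 to 457 in siSON. Over the 8 beta chains it was 438 to 451 in siControl and 485 to 501 in siSON. These sums depend on the scaling and were not computed with others. ITGB1, which makes up most of the beta sum, was lower with library size alone and with cyclic loess. Within libraries, the alpha sum lay above the beta sum in every control library and below it in every knockdown library. ITGA5 held 60.5% of the alpha sum in siControl and 66.3% in siSON, ITGA3 18.9% and 8.76%, and ITGA6 4.44% and 11.4%. ITGB1 held 92.6% of the beta sum in siControl and 83.8% in siSON, and ITGB5 6.85% and 15.8%.

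**Figure D4:**
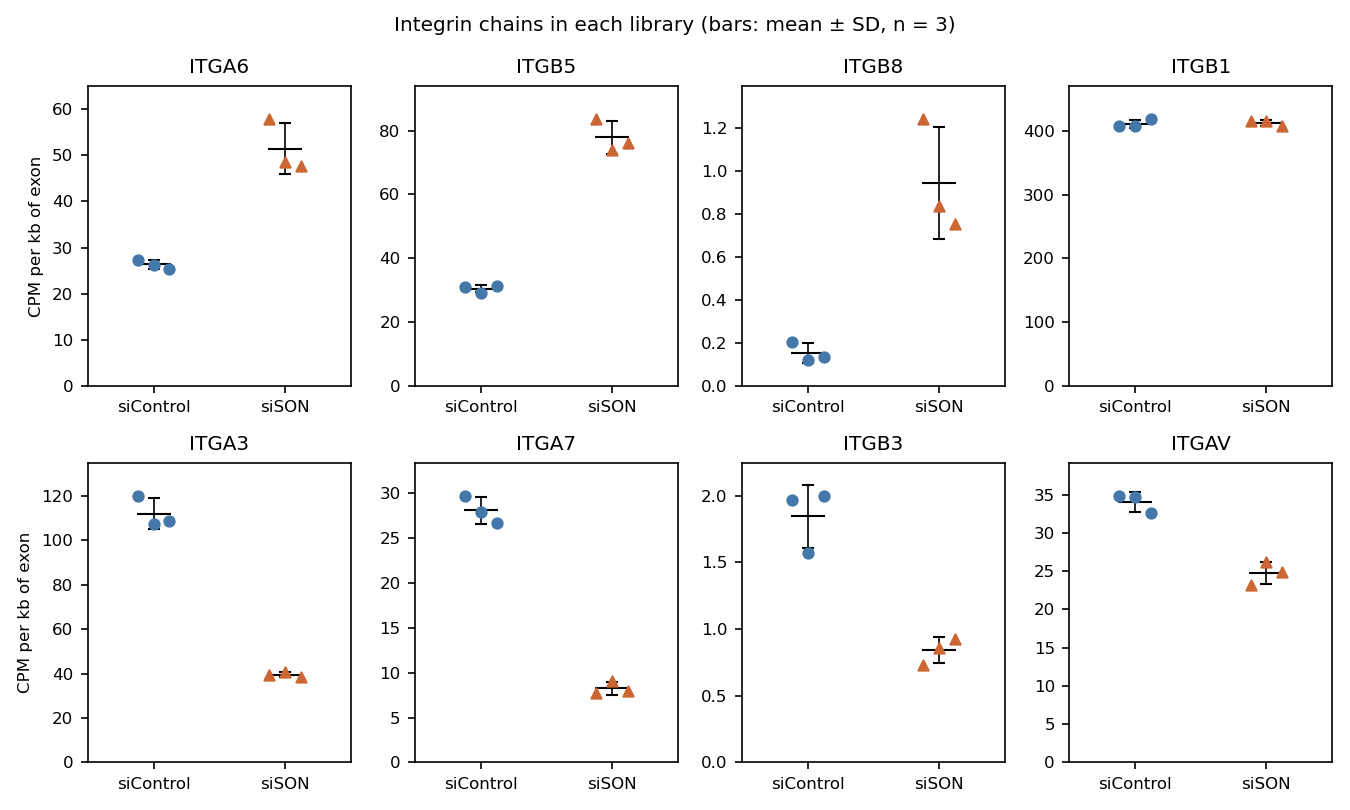
Level of 8 integrin chains in CPM per kilobase of exon in each of the 6 libraries, with mean and SD (n = 3); each panel has its own axis from 0. ITGA6, ITGB5 and ITGB8 are higher in every siSON library, ITGA3, ITGA7, ITGB3 and ITGAV are lower, and the groups of ITGB1 overlap.

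Integrin chains named for leukocytes were mostly at low levels. ITGAX, the alpha chain of a complement receptor of myeloid cells, fell from 6.76, 4.61 and 4.16 CPM to 1.29, 0.931 and 0.885 CPM (log2 fold change -2.31, SE 0.23, adjusted p = 3.67e-06). ITGB2, the beta chain with which it forms that receptor, was at 0.220 to 0.321 CPM in siControl and 0.0970 to 0.354 CPM in siSON and was not called. Of 10 leukocyte markers 8 were below 1 CPM in every library, with CD3E and MS4A1 at 0, and their sum was 6.88 to 8.91 CPM in siControl and 6.77 to 7.60 CPM in siSON. PTPRC, the common leukocyte antigen, fell from 1.98, 1.12 and 1.23 CPM to 0.310, 0.291 and 0.275 CPM (-2.29, adjusted p = 4.40e-05). LYZ, a myeloid marker of the list, fell from 0.616, 0.739 and 0.669 CPM to 0.155, 0.116 and 0.138 CPM (-2.28, adjusted p = 1.23e-04). Of the 4 leukocyte markers tested these 2 were called, and LCP1, which makes up most of the sum, was not (5.12 against 6.06 CPM). Others of the list had higher means in siSON. CD68 read 0.253 against 0.343 CPM and was not called (log2 fold change 0.42). CD14 read 0.063 against 0.158 CPM and did not pass the filter on low counts. The markers thus did not move alike, and their part in the ITGAX value was not tested. ITGAE, the alpha chain of the E-cadherin receptor of intraepithelial lymphocytes, rose from 16.4, 17.6 and 17.1 CPM to 32.1, 31.7 and 31.5 CPM (0.90, SE 0.07, adjusted p = 4.46e-07). The gene HASPIN lies within it on the opposite strand. ITGB7, its beta partner, was at 0.361 to 0.535 CPM in siControl and 0.236 to 0.672 CPM in siSON and was not called.

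The 19 members that did not pass the filter on low counts were 13 collagens, 5 integrins and LAMC3. Of these, 6 had 0 counts in every library: COL19A1, COL22A1, COL6A5, COL6A6, COL9A1 and ITGA8. LAMC3 had 8, 6 and 11 counts in siControl and 0 in each siSON library. ITGAM, a myeloid integrin chain, had 4, 1 and 21 counts in siControl and 0 in each siSON library. COL9A2 had 13, 5 and 22 counts in siControl and 0, 2 and 3 in siSON. A count of 0 allows up to 3 counts, or 0.0517 to 0.059 CPM in the siSON libraries. In the edgeR fit without the filter, LAMC3 (adjusted p = 0.00158), ITGAM (adjusted p = 0.00136) and COL9A2 (adjusted p = 0.012) were called lower, and none of the other members below the filter was called.

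Several members lie next to each other in the genome, within 100 kb or less, and some of these neighbours shared a call while others did not. How often neighbours share a call across all genes, of which 35.2% were higher and 36.5% lower, was not computed. LAMB1 rose while LAMB4, 20293 bases away on the same strand and near the limit of detection, was not called. The same held for ITGA2 and ITGA1, 30116 bases apart. COL5A2 rose beside the uncalled and much rarer COL3A1, 19150 bases away. COL6A1 fell beside the uncalled and much rarer COL6A2 (siSON mean 0.278 CPM), at 93047 bases. ITGA3 and COL1A1, neighbours in this set at 92808 bases on chromosome 17, both fell, as did the pair of COL4A5 and COL4A6. Whether the fold changes of neighbours differ was not tested.

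The members that fell had transcripts richer in G and C than those that rose. The median GC content of the longest coding transcript was 60.2% for the 25 lower members, 49.1% for the 18 higher members and 50.5% for the 19 not called. In all protein-coding genes tested the medians were 53.3% for lower and 47.0% for higher genes. Among 43 members at or above the protein-coding median of 48.5%, 10 were higher and 22 lower, and among 19 below it 8 were higher and 3 lower. For protein-coding genes the shares were 35.0% higher and 45.5% lower at or above that median, and 46.4% and 28.6% below it. Across genes, which are not independent replicates, Spearman's rho between GC content and log2 fold change was -0.45 for the 62 members and -0.21 for 13003 protein-coding genes. With the median intron length rho was 0.46 for the 62 members and 0.25 for 12685 protein-coding genes, and the members' median intron was 467 bases for lower and 1578 bases for higher genes. GC content and intron length go together in the genome, and all points share the same 6 libraries. Whether the members differ from other genes in this respect was not tested.

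**Figure D5:**
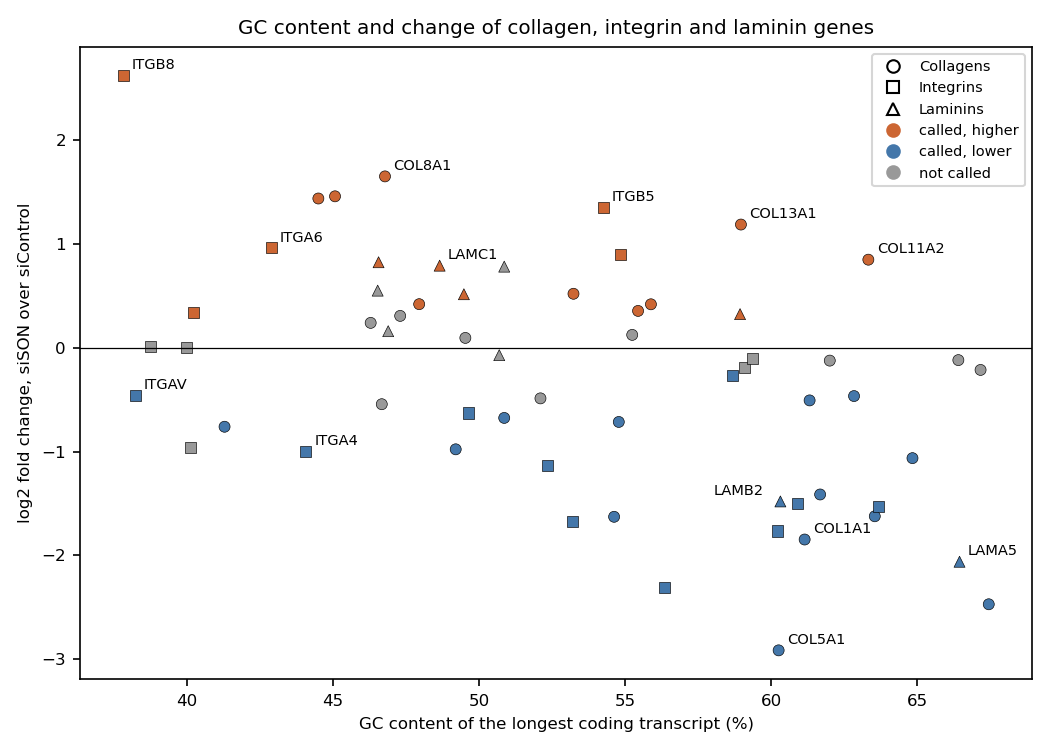
Log2 fold change of siSON over siControl against the GC content (percent) of the longest coding transcript for the tested members less 1 laminin, 1 point per gene, with the shape giving the family and the colour the call. LAMA5, COL1A1 and LAMB2 lie low on the right, COL8A1, ITGA6 and ITGB8 lie high on the left, and COL13A1 and COL11A2 lie high on the right.

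Genes that make, bind or remodel these proteins were read from 6 lists of protein-coding genes. Each is to be set beside the 77.4% of protein-coding genes called, and the 71.7% of all genes. Collagen biosynthesis and secretion had 29 of 32 tested genes called, 13 higher and 16 lower, with a median log2 fold change of -0.33. COLGALT2, a collagen galactosyltransferase, rose from 3.55, 3.02 and 3.31 CPM to 24.9, 18.7 and 23.8 CPM (log2 fold change 2.77). MIA2, an export factor of the endoplasmic reticulum, rose from a mean of 27.3 to 74.1 CPM (1.44). P4HA2, a prolyl hydroxylase subunit that stabilises the triple helix, fell from 86.1, 80.2 and 87.3 CPM to 16.2, 19.2 and 17.6 CPM (-2.26). P3H4, a member of a lysyl hydroxylation complex, fell from a mean of 45.7 to 8.72 CPM (-2.39).

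The list of proteins that link integrins to actin and signalling had 39 of 46 tested genes called, 20 higher and 19 lower. PTK2, the focal adhesion kinase, rose from 44.5, 40.1 and 40.2 CPM to 216, 212 and 213 CPM (log2 fold change 2.36). PPFIBP1, a liprin, rose from a mean of 127 to 269 CPM (1.09). FLNA, the actin crosslinker filamin A, which binds integrin beta tails, fell from 6630, 6608 and 6635 CPM to 1537, 1946 and 1731 CPM (-1.93). SHARPIN, an inhibitor of integrin activation, fell from a mean of 40.8 to 4.66 CPM (-3.13).

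Partners of the basement membrane had 13 of 18 tested genes called, 5 higher and 8 lower. SPARC, a collagen-binding matricellular protein, rose from 1042, 1133 and 1125 CPM to 2687, 2498 and 2451 CPM (log2 fold change 1.21), and NID2, a nidogen that bridges laminin and type IV collagen, rose from a mean of 71.3 to 145 CPM (1.02). AGRN, the proteoglycan agrin, fell from 446, 459 and 417 CPM to 95.2, 125 and 100 CPM (-2.04). POMGNT1, a glycosyltransferase acting on dystroglycan, fell from a mean of 114 to 22.2 CPM (-2.36).

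Other matrix ligands had 21 of 29 tested genes called, 7 higher and 14 lower. THBS1, thrombospondin 1, rose from 766, 732 and 721 CPM to 4017, 3245 and 3066 CPM (log2 fold change 2.22), while THBS3 of the same family fell from a mean of 40.7 to 5.60 CPM (-2.86). TNXB rose from a mean of 1.69 to 8.26 CPM (2.30), and its locus overlaps ATF6B on the same strand and CYP21A2 on the opposite one. LTBP2 fell from a mean of 55.3 to 14.2 CPM (-1.96). FN1, fibronectin and the ligand of ITGA5, was at 7477 to 9373 CPM in siControl and 7696 to 9174 CPM in siSON and was not called (0.03, adjusted p = 0.784).

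Matrix receptors other than integrins had 16 of 18 tested genes called, 7 higher and 9 lower. DAG1, dystroglycan, a laminin receptor, rose from a mean of 197 to 300 CPM (log2 fold change 0.61), and CD47, an integrin-associated protein that binds THBS1, from 81.9 to 127 CPM (0.63). CSPG4 fell from a mean of 351 to 82.0 CPM (-2.10) and MRC2, an endocytic collagen receptor, from 369 to 103 CPM (-1.84). Metalloproteinases and their inhibitors had 18 of 21 tested genes called, 12 higher and 6 lower. MMP24 rose from 1.03 to 3.18 CPM (1.63) and ADAM17 from 90.2 to 162 CPM (0.84), and ADAM15 fell from 159 to 72.3 CPM (-1.13) and MMP19 from 31.8 to 21.8 CPM (-0.54).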

How the data were processed

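The authors deposited raw read counts per gene for 6 libraries, with 1 column per library. The submitters' processing notes name cutadapt 1.16, STAR 2.5.2a, featureCounts 1.6.2, DESeq2 1.28.1 and the build hg38. How these were set, which annotation was counted, whether strand was used and how reads with several matches were handled is not given in the sources used here, so overlapping genes and near-identical copies are uncertain. Positions and transcript properties come from GENCODE 29 (GRCh38), which holds all 58735 identifiers. Promoter stretches come from RefSeq (GRCh38.p14), where 57 of the 81 members have an entry.

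From the deposited counts, groups were compared in edgeR 4.0.16 under R 4.3.3 (filterByExpr, minimum count 10, TMM scaling, robust quasi-likelihood F test, group as the only term). Benjamini-Hochberg adjustment covered all 16591 genes tested, and a gene was called at an adjusted p under 0.05. The common biological coefficient of variation of the fit came to 8.8%. The procedure was also run on simulated counts in which few genes changed, equally often up and down. That setting differs from these data, where most genes were called, so it cannot show whether the scaling holds here. Alternatives used RLE factors, library size alone, cyclic loess and voom in limma 3.58.1, DESeq2 1.42.0, no filter on low counts, a mean count of at least 50, the replicate number as a block, and each library left out.

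The members and lists were chosen with earlier results of these data known. Values in every library are given for the 4 most abundant members of each family per kb, the 4 largest called rises and falls without overlap, and their partner chains. Each pathway list is represented by its 2 largest called rises and falls whose groups do not overlap and whose log2 CPM averages at least 1; FN1, other marker genes with values, and the library values of further members, were added after their values were seen. One laminin and 1 marker gene enter the counts but are not reported here by themselves. Splicing was not analysed here.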

Additional observations from a re-analysis of the deposited data

How the results depend on the processing

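Over 14 alternatives, 6 of which leave out a library, 39 to 45 members were called, with 14 to 19 higher and 22 to 29 lower (10226 to 12604 of all genes). Of the 43 called members, 31 kept call and direction in all alternatives that tested them (11 higher, 20 lower), and only COL4A1 changed sign. With library size alone, log2 fold changes below 0 replaced positive ones in COL15A1 (-0.071), COL4A4 (-0.10), ITGA1 (-0.18), ITGB1 (-0.19) and LAMB4 (-0.034). With cyclic loess the sign changed in COL12A1 (-0.069), COL6A2 (0.65), COL3A1 (0.092), COL18A1 (0.029), COL4A1 (-0.092), ITGA1 (-0.086), ITGB1 (-0.48), ITGB2 (0.31), ITGB7 (0.32) and LAMA3 (0.28), with voom in COL6A2 (0.071), and with a mean count of at least 50 in ITGA1 (-0.040) and ITGB1 (-0.050). The cause was not tested. Leaving out each library in turn gave ranges that span 0 for COL6A2 (-0.52 to 0.15), ITGA1 (-0.033 to 0.074), ITGB1 (-0.025 to 0.028), ITGB2 (-0.53 to 0.19), ITGB7 (-0.62 to 0.19), LAMA3 (-0.19 to 0.054) and LAMB4 (-0.17 to 0.40), none of them called. With the replicate number as a block, 44 members were called, 19 higher and 25 lower, and 12313 of all genes. COL12A1 (0.26) and COL4A2 (-0.12) gained a call and COL25A1 (-0.76) lost it. The deviations of same-numbered libraries correlated at 0.194, 0.0461 and 0.118, each library correlated best with its own number, and the labels do not say what the number stands for. COL21A1, COL25A1 and ITGB4, all below 1 CPM in every library, lost their calls under 5, 9 and 6 of the 13 alternatives that tested them.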
